A study of Homo sapiens with 6 samples.

Results

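The pericentromeric regions of 21 human autosomes were examined for domains of histone H3 trimethylated at lysine 9 (H3K9me3). A region was taken as the 200-kb bins of the hg38 assembly whose start lay within 5 Mb of the centromere, which gave 1063 of the 14091 bins of these chromosomes (15453 bins over all chromosomes). Chromosome 19 has no position in this rule and was left out. Of the 1063 bins, 254 lay on the 5 acrocentric chromosomes (13, 14, 15, 21 and 22) and 809 on the other 16. The choice used position alone and no measured value.

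Chromatin immunoprecipitation and sequencing was done in MCF10.DCIS.com, a cell line of the MCF10 breast series, transformed with T24 H-RAS, that models ductal carcinoma in situ. Control cells carried the inducible lentiviral vector pSLIK-neo-EV with no insert, and RAB5A cells carried pSLIK-neo-RAB5A, which drives overexpression of the early endosome GTPase RAB5A. Both were stable, antibiotic-selected populations of this single line, crosslinked as monolayers. Each condition had 2 H3K9me3 libraries, replicate 1 with antibody ab176916 and replicate 2 with ab8898. The replicates of a condition thus differ in antibody, and nothing states that they came from separate cultures. Every p below reflects only the agreement among these 4 libraries. A sign-flip p of 0.125 says only that all 4 differences had the same sign. The data are lists of enriched domains per library on a grid of 200 kb, and a bin is called when a domain covers it.

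Human centromeres are built on alpha satellite, a tandem repeat of short units laid head to tail, and are flanked by further satellites and by segmental duplications rich in pseudogenes and gene family copies. H3K9me3 is laid down by methyltransferases such as SUV39H1 and SETDB1 and bound by HP1 proteins, and it marks this constitutive heterochromatin. The acrocentric chromosomes carry the ribosomal DNA on very short arms that are largely missing from hg38. Reads from such repeats often align to many places and are removed, so an uncalled bin is not a bin shown to lack the mark.

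The label was checked against the sequence itself. Bins were counted as alpha satellite where over 45% of bases were identical to the base that stands 1 repeat unit further on. Of the 271 such bins on the 21 chromosomes, 269 lay in the windows (53.8 Mb). Every window held at least 3, so the windows contain centromeric array sequence. Array bins just under the cut, as on chromosome 3, are not in this count. One unit is shown for each of 3 arrays that differed in calling, because array sequence is what most of the uncalled centre consists of. Each comes from the alpha-satellite bin of its chromosome and calling class with the most CENP-B boxes, and capitals mark the box, searched as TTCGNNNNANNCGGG on both strands.
Chromosome 17, chr17:23400085-23400255, plus strand: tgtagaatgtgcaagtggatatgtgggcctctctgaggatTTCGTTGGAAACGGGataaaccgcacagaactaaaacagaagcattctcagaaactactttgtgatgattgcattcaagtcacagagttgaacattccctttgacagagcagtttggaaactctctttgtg
Chromosome 7, chr7:58600137-58600307, plus strand: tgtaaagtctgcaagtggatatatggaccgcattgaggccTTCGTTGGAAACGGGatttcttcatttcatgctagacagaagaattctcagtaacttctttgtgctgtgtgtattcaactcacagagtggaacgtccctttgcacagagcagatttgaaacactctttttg
Chromosome 18, chr18:20000241-20000411, plus strand: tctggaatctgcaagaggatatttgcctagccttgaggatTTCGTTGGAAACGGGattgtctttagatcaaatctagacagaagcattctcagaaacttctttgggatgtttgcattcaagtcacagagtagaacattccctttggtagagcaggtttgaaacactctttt
The chromosome 17 bin was called in all 4 libraries, the chromosome 7 bin in 3 and the chromosome 18 bin in none. Aligned end to end, the chromosome 17 and 7 units were identical at 78.9% of positions, 17 and 18 at 80.1%, and 7 and 18 at 80.7%. At least 10 box matches were present in 304 pericentromeric bins and in 2.19% of all bins of the 21 chromosomes. The 3 bins shown were chosen for their box counts, which were 572, 554 and 574 matches.

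A second repeat, tandem GGAAT, is the unit of satellites 2 and 3. Bins with over 50 runs of at least 2 copies, on either strand, made up 0.27% of all bins and 33 of the 38 lay in the windows. The longest run of 3 such bins is shown with its copies in capitals, from a called non-acrocentric, a called acrocentric and an uncalled bin.
Chromosome 17, chr17:21991353-21991452, plus strand: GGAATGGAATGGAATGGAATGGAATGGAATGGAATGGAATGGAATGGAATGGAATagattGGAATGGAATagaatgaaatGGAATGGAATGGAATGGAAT
Chromosome 21, chr21:10692333-10692432, minus strand: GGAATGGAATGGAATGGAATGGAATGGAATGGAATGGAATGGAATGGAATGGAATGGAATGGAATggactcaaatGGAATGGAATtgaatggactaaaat
Chromosome 10, chr10:38899890-38899989, plus strand: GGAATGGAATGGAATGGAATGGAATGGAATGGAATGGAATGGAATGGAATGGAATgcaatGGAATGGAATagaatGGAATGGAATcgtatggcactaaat
The first 2 bins were called in all 4 libraries and the chromosome 10 bin in none, with 2321, 1496 and 1559 runs in the bin.

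Pericentromeric bins were called about 3 times as often as the rest of these autosomes. In control cells, 172 of 1063 bins (34.4 Mb, 16.2%) were called with ab176916 against a background of 6.41% of all bins, and 168 (33.6 Mb, 15.8%) with ab8898 against 6.19%. In RAB5A cells, 166 bins (33.2 Mb, 15.6%) were called with ab176916 against 6.42%, and 174 (34.8 Mb, 16.4%) with ab8898 against 6.29%. Of the 13028 other bins, between 5.40% and 5.67% were called, so that the ranges were far apart. The mean was 15.99% ± 0.34 (SD, n = 4) in the windows and 5.54% ± 0.12 (SD, n = 4) outside them. The difference was 10.5 ± 0.40 percentage points, positive in all 4 libraries (exact two-sided sign-flip permutation test, p = 0.125, the smallest that 4 libraries allow). It was 6.49 points with windows of 10 Mb on each side and 6.82 points on the long-arm side alone. The windows are 7.54% of the bins and held between 18.4% and 19.6% of the called ones.

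**Figure D1:**
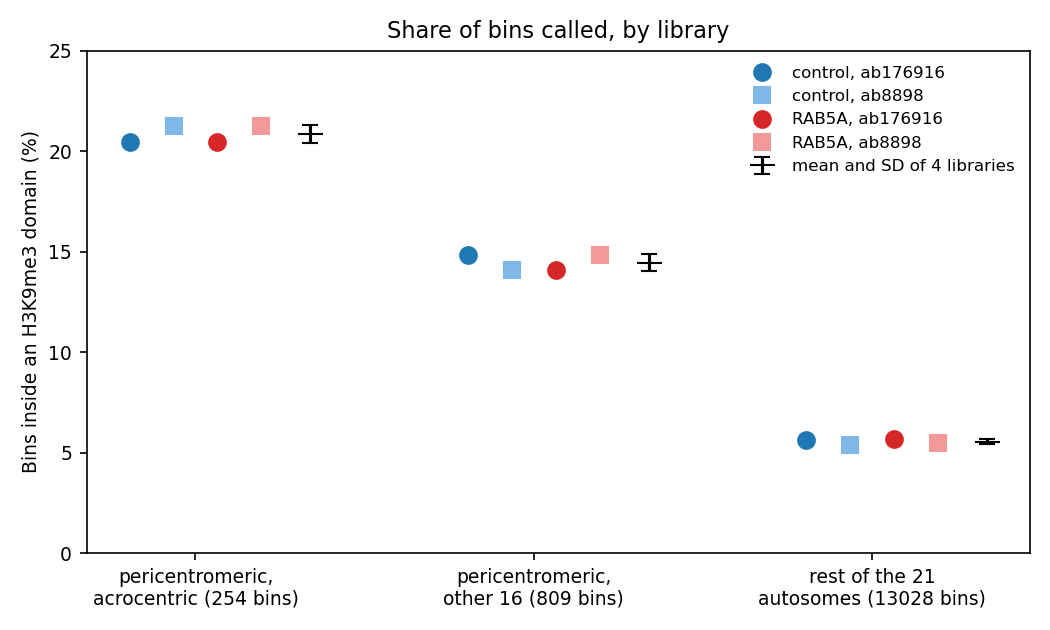
Percentage of 200-kb bins inside an H3K9me3 domain in each of the 4 libraries (points; circles ab176916, squares ab8898) for pericentromeric bins of the acrocentric and of the other chromosomes and for the rest of the autosomes, with the mean and SD over the libraries. The points lie near 21%, 14% and 5.5%, and no set overlaps another.

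The calls were largely shared. A set of 156 bins (31.2 Mb) was called in all 4 libraries, against 5.59% of all bins, and 177 in at least 1, against 6.95%. Thus 88.1% of the pericentromeric bins called anywhere were called everywhere, compared with 78.7% outside the windows, 96.3% in the acrocentric windows and 84.6% in the other windows. The 156 bins formed 16 runs of between 1 and 3.2 Mb.

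Calling was uneven between chromosomes. A called bin was present in 12 of the 21 windows, namely those of chromosomes 13, 15, 21 and 22 among the acrocentrics and of 2, 7, 8, 10, 11, 16, 17 and 20 among the others. The window share exceeded that of the rest of the chromosome in these 12 and fell below it in 8, where no window bin was called at all (1, 3, 5, 6, 9, 12, 14 and 18). Chromosome 4 had no call inside or outside its window.

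Chromosome 7 had the most called window. In control cells 38 of its 50 bins were called with ab176916 and 32 with ab8898, and in RAB5A cells 31 and 38. The mean was 69.5%, against 6.19% on the rest of the chromosome. Without chromosome 7, a choice made after its calls were seen, the excess of the windows over other autosomal bins was 7.86 points.

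Most of the other windows varied little between libraries. Chromosomes 11, 16, 21 and 22 gave the same bins in every library, with 20 bins (39.2%), 18 bins (35.3%), 16 bins (31.4%) and 12 bins (23.5%). Chromosome 15 gave 17 bins (33.3%) with ab176916 and 19 bins (37.3%) with ab8898, the same in both conditions. Chromosome 17 had 11 bins in control cells with ab176916 and 12 in the other libraries. Chromosomes 10 and 20 had 9 bins each and chromosome 13 had 7, again in every library. Chromosome 2 gave 7 bins with ab176916 and 8 with ab8898, and chromosome 8 gave 8 and 6, the same in both conditions.

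**Figure D2:**
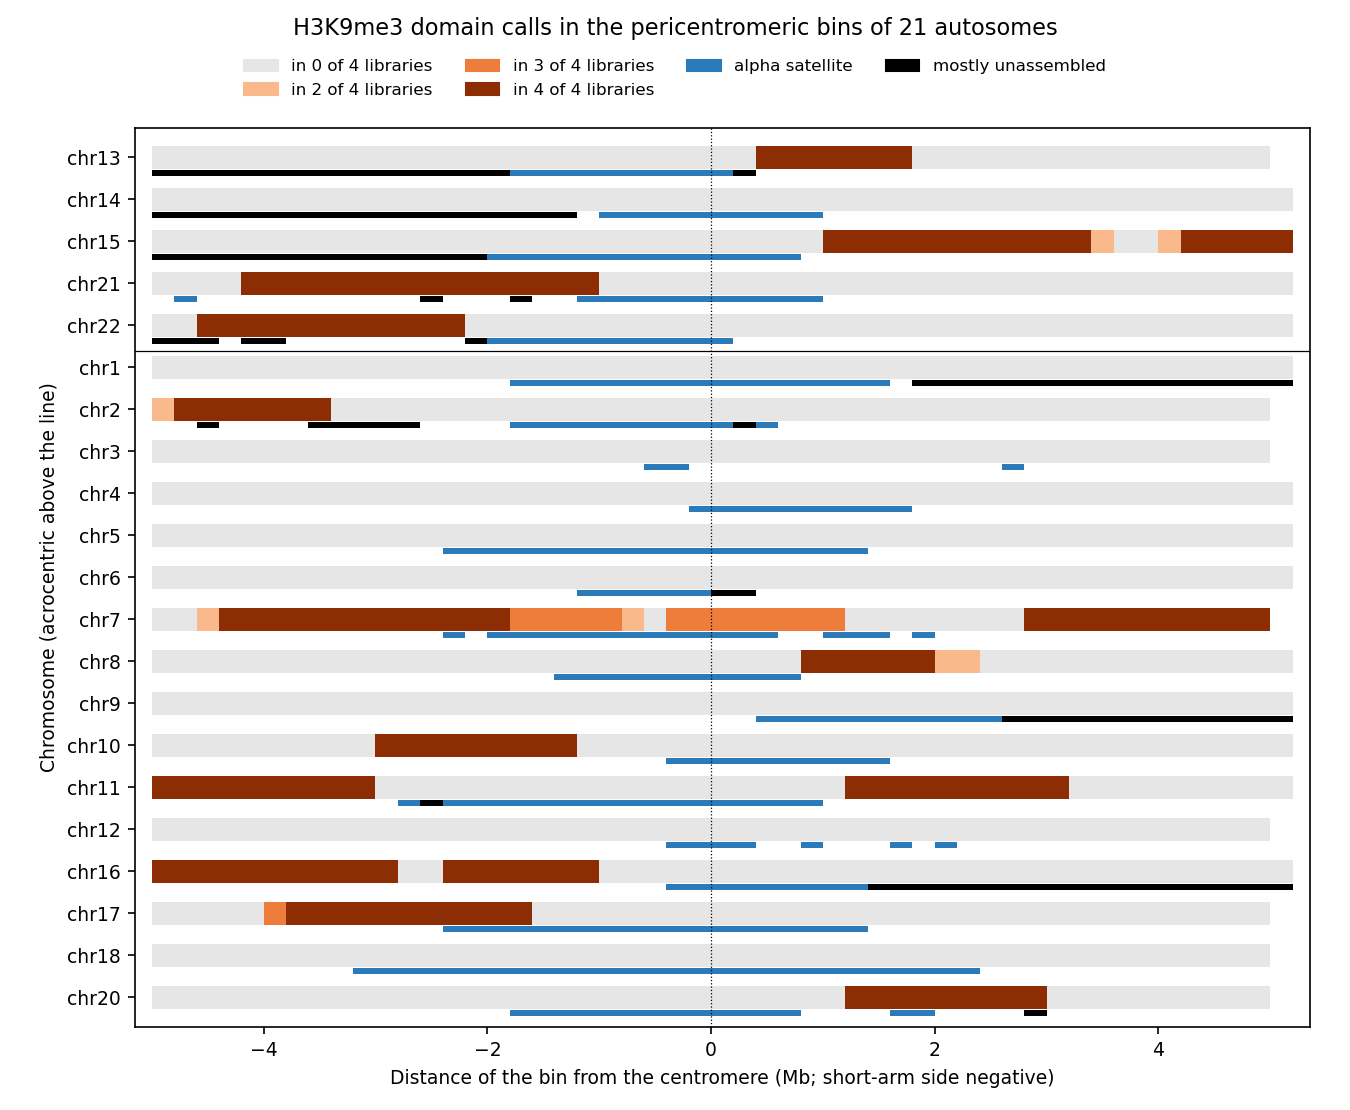
Each row is the pericentromeric window of a chromosome, drawn by distance from the centromere in Mb, and each cell is a 200-kb bin shaded by the number of the 4 libraries that called it. The strip under each row marks alpha-satellite bins (blue) and bins mostly of unassembled bases (black). Chromosome 7 holds 15 of the 21 bins called in only some libraries.

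The acrocentric windows were called more often than the others. Their share was 20.5% with ab176916 and 21.3% with ab8898, identical in control and RAB5A cells (52 and 54 of 254 bins), and the same bins were called in both conditions. In the other windows it ran from 14.1% to 14.8%. The difference was 6.40 ± 0.62 percentage points (SD, n = 4), positive in 4 of 4 libraries (exact two-sided sign-flip permutation test, p = 0.125, the smallest possible).

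This difference rested on few chromosomes and on incompletely assembled bins. It was 2.78 points without chromosome 15, 3.76 without chromosome 21 and 11.7 without chromosome 14, which had no called bin. It was 10.0 points without chromosome 7, and 13.3 with windows of 10 Mb. In bins with at most 10% unassembled bases (N), it was 1.13 ± 0.93 points, with 23 to 25 of 155 acrocentric and 96 to 102 of 693 other bins called. In bins with over 10 and up to 50% N, 24 of 40 acrocentric bins were called in every library, and 13 to 15 of 56 others. With all bins up to 50% N, chosen after seeing the data, it was 9.40 points. The part of assembly gaps in the difference was not tested further.

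The acrocentric calls lay on opposite sides of the centromere. On chromosomes 21 and 22 all called bins were on the short-arm side, and on 13 and 15 all were on the long-arm side. Over the 5 chromosomes, 28 of 125 short-arm bins (22.4%) were called in each library, although 58 of the 125 were mostly unassembled. On the long-arm side, 24 of 129 bins (18.6%) were called with ab176916 and 26 (20.2%) with ab8898. On the other 16 chromosomes the short-arm side was called at 18% to 19.5% and the long-arm side at 9.29% to 10.8%.

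The calls were few at the centromere itself and peaked a short way out. Of the 197 bins within 1 Mb, 76.1% of which were alpha satellite, 6 to 13 were called (3.05% to 6.60%). The share was 17.6% to 19.5% at 1 to 2 Mb, 20% to 20.95% at 2 to 3 Mb and 19.1% to 20.0% at 3 to 4 Mb. At the limit of the rule, bins 4 to 5 Mb away were called at 14.8% to 15.3% and those 5 to 10 Mb away at 7.23% to 7.81%. The acrocentric long arms did not follow this decline, since 43.8% to 47.9% of their 121 bins at 5 to 10 Mb were called, more than inside the window. On the long arms of the other 16 chromosomes, 4.35% of the 391 bins at 5 to 10 Mb were called in each library. With both arms together the share there was 2.69% to 2.81%.

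**Figure D3:**
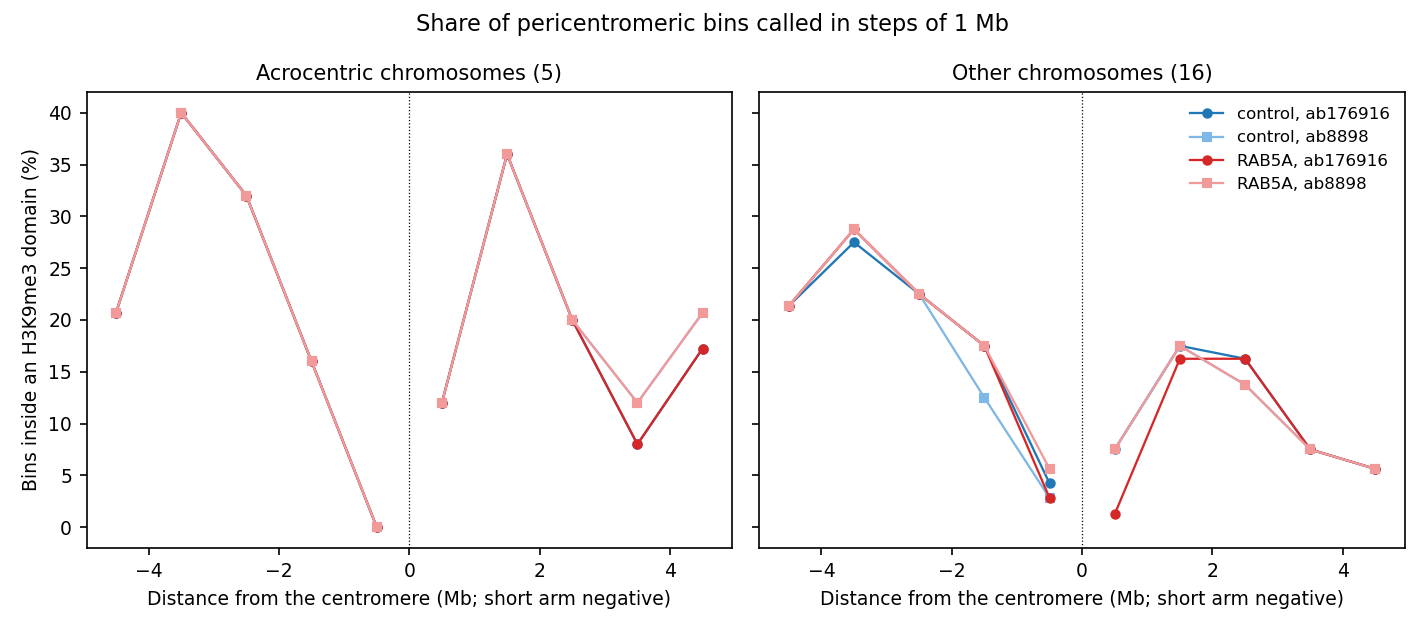
Percentage of pericentromeric bins inside an H3K9me3 domain in steps of 1 Mb from the centromere (x axis in Mb, short arm negative), with a line per library, for the 5 acrocentric and the 16 other chromosomes. Lines that coincide hide each other; on the short-arm side the share is lowest beside the centromere and reaches 40% at 3 to 4 Mb on the acrocentrics, and on the long-arm side it is highest at 1 to 2 Mb, or level with 2 to 3 Mb in the RAB5A ab176916 library of the other chromosomes.

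Alpha-satellite bins were called at close to the share of all bins (6.19% to 6.42%) and below the other assembled bins of the windows. Of 269 such bins, 20 were called in control cells with ab176916, 15 with ab8898, and 15 and 21 in RAB5A cells, or 5.58% to 7.81%. A total of 248 (92.2%) were called in no library. The called ones lay on 4 chromosomes, with 14 on chromosome 7, 4 on chromosome 17, 2 on chromosome 20 and 1 on chromosome 21. On the other 17 chromosomes no alpha-satellite bin was called, including the 28 of chromosome 18, the most in any window. The median number of box matches per alpha-satellite bin, called or not, ran from 63 on chromosome 3 to 568 on chromosome 2, with 547 on chromosome 7 and 556 on chromosome 18.

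Bins with tandem GGAAT and the remaining assembled bins had higher shares. Of the 28 bins with tandem GGAAT that were not classed as alpha satellite, 11 or 12 were called (39.3% to 42.9%). Of the 119 mostly unassembled bins, over 50% N, 8 were called in every library (6.72%), and none of these lay on chromosomes 1, 9 or 16, where long blocks next to the centromere are missing from the assembly. The 647 remaining assembled bins, which include array bins just under the alpha-satellite cut, were called at 20.4% to 20.6%. Among these, 32.3% to 33.8% of the 133 acrocentric bins and 17.1% to 17.3% of the 514 others were called. With alpha-satellite bins left out on both sides, also chosen after seeing the data, the excess of the windows was 13.6 points and the acrocentric difference 9.60 points.

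**Figure D4:**
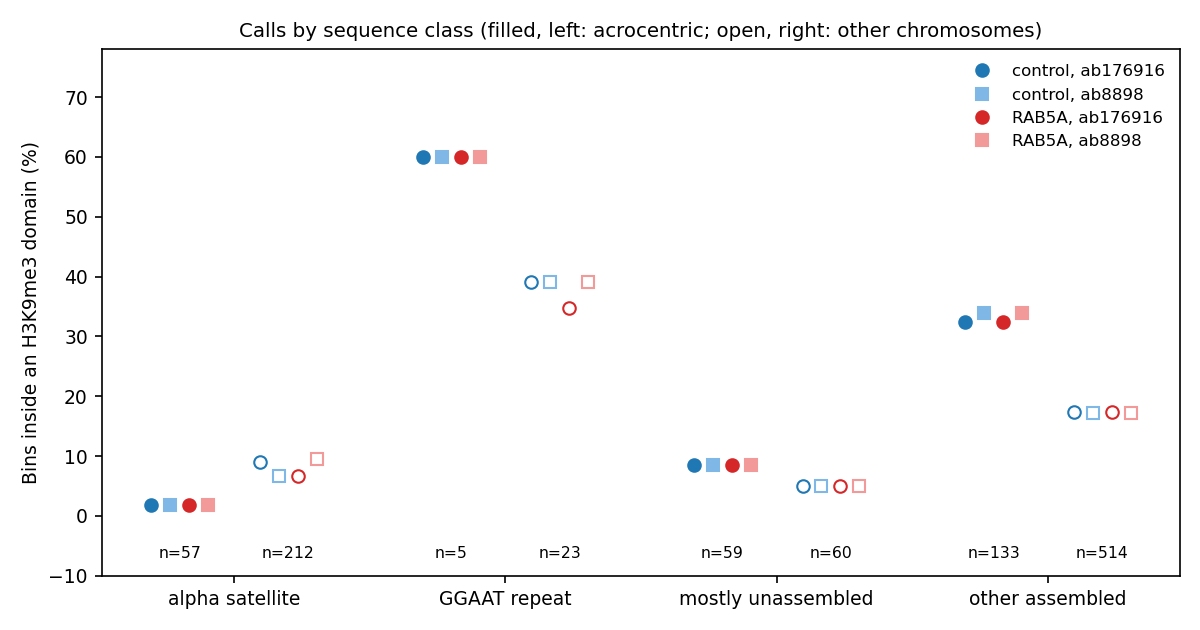
Percentage of pericentromeric bins inside an H3K9me3 domain by sequence class, with a point per library, filled for acrocentric and open for other chromosomes and n the number of bins. Alpha-satellite bins lie below 10% and the other assembled bins near 33% and 17%.

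The rule bounds how far a called run can lie from an array, as every bin started within 5 Mb of the centromere. Distances are given for called runs only, with no uncalled bins to set beside them. Adjacent bins called in any library formed 17 stretches, 5 of them on acrocentric chromosomes. Alpha satellite was inside 5 stretches and touched 1 more, 8 stood 0.2 to 1 Mb from the nearest alpha-satellite bin, and 3 stood further off, on chromosomes 2, 15 and 16. Over assembled bins, the median GC content was 40.6% in the 148 called everywhere and 39.1% in the 775 called nowhere. The 2 groups differ in alpha satellite, which made up 5.77% of the 156 bins called everywhere and 28.0% of the 886 called nowhere.

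In each list, 16 or 17 domains touched the windows, of 61 to 64 on the 21 chromosomes, and 12 or 13 lay wholly inside. Their median length was 2.2 or 2.3 Mb, against 2.2 to 2.4 Mb for the others. The caller's score has no stated unit and grows with length, so it was divided by the number of bins and ranked within its list. The median percentile was 71.4, 73.3, 68.6 and 69.3 for domains touching the windows (control ab176916 and ab8898, then RAB5A) and 43.5, 42.0, 45.5 and 42.7 for the others. The pericentromeric median was the higher in every list on this scale. The undivided score ranked the other way in 3 of the 4 lists, with median percentiles of 41.6, 46.7, 44.2 and 41.3 for domains touching the windows and 48.1, 45.3, 47.4 and 49.3 for the others, so the order depends on the division by length.

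The longest run called in all 4 libraries was chr21:7800001-11000000, 3.2 Mb on the short-arm side of an acrocentric, of which 23.4% was unassembled on average over its bins. Its protein-coding gene was TPTE, a gene expressed in testis, beside 26 pseudogenes. The run chr22:10400001-12800000 (2.4 Mb) held no protein-coding gene and was 33.8% unassembled. The run chr15:20000001-22400000 (2.4 Mb) held 10, the first of them GOLGA6L6, POTEB2 and POTEB3, and 57 pseudogenes.

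On chromosome 7 a run lay on each arm. The short-arm run, chr7:55800001-58400000 (2.6 Mb), overlapped SEPTIN14, a septin, the unnamed gene ENSG00000249773 and the zinc finger gene ZNF713 first, among 13 protein-coding and 86 pseudogenes. It also covered PSPH, the last enzyme of serine synthesis, CCT6A, a subunit of the chaperonin CCT, and CHCHD2, a mitochondrial protein, which were picked out after their calls were seen because most cells express them. The long-arm run, chr7:63000001-65200000 (2.2 Mb), had 11 protein-coding genes, of which ZNF722, ZNF727 and ZNF735 came first.

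Chromosomes 16 and 17 had runs of 2.2 Mb. The run chr16:31800001-34000000 held ZNF267 and the TP53TG3 family, copies of a gene named as a target of p53, with 65 pseudogenes. The run chr17:21400001-23600000 held KCNJ18 and the end of KCNJ12, both inward rectifier potassium channels, with 32 pseudogenes and 4 alpha-satellite bins. The start of KCNJ12 lay in the bin before it, which was called in 3 libraries. The run includes both chromosome 17 sequences shown above.

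Chromosome 11 had a run of 2.0 Mb on each side. The short-arm run, chr11:48400001-50400000, held OR4A47, TRIM51G and TRIM49B first and FOLH1, the folate hydrolase known as prostate-specific membrane antigen. The long-arm run, chr11:54600001-56600000, held 48 protein-coding genes, nearly all olfactory receptors such as OR4C46, OR4A8 and OR4A5. On chromosome 10 the run chr10:36800001-38600000 (1.8 Mb) held ANKRD30A, a breast differentiation antigen, and the zinc finger genes ZNF248 and ZNF25.

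Gene starts in the windows were called more often than elsewhere in each class. Over all windows, the 182 immunoglobulin and T cell receptor segments, which lie in a few clusters, had the highest share, 47.3% to 56.6%, against 0% of 466 elsewhere. In the acrocentric windows 20 of 84 were called in each library (23.8%). There pseudogenes (33.9% to 36.5%) and lncRNAs (25.4% to 27.0%) lay above them and protein-coding genes (10.9% to 12.6%) below. Of 715 protein-coding starts, 115 to 121 were called (16.1% to 16.9%), against 1.99% to 2.21% of 16920 elsewhere. In the windows this was close to the share of all bins, 15.6% to 16.4%, and elsewhere it was below theirs, 5.40% to 5.67%. Of the 114 starts called in all 4 libraries, 53 were of olfactory receptor genes and 18 of numbered ZNF genes. Of 952 lncRNA starts, 23.8% to 24.2% were called, against 5.17% to 5.39% elsewhere. Of 1578 pseudogene starts, 41.1% to 41.3% were called, against 3.41% to 3.52% elsewhere. In assembled bins not classed as alpha satellite, the mean number of pseudogenes was 4.45 per bin in the 139 bins called everywhere and 1.73 in the 527 called nowhere. The bins called nowhere still include array bins just under the alpha-satellite cut, as on chromosome 3. Protein-coding genes ran the other way, with 0.82 and 1.12 per bin. Outside the windows the order was reversed, since bins called everywhere had fewer pseudogenes than those called nowhere, 0.55 against 0.95 per bin. Genes that are near-identical copies share these duplicated regions, and reads between copies cannot be told apart.

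**Figure D5:**
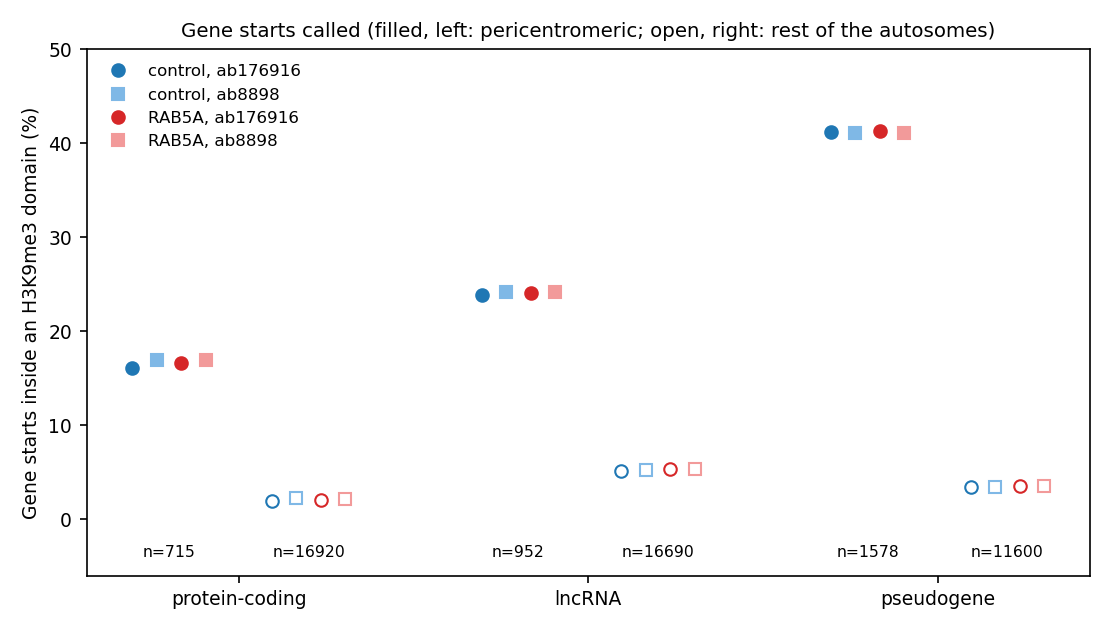
Percentage of gene starts inside an H3K9me3 domain for protein-coding genes, lncRNAs and pseudogenes, with a point per library, filled for the pericentromeric windows and open for the rest of the autosomes, and n the number of genes. Pseudogenes of the windows lie near 41% and those elsewhere near 3.4%.

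The numbered ZNF genes encode zinc finger proteins, many of which carry a KRAB domain and direct H3K9me3 to transposable elements. Of 32 protein-coding ZNF genes in the windows, 18 were called in all 4 libraries and 14 in none. These 18 lay on chromosome 7 (13 genes, for example ZNF107, ZNF479 and ZNF680), chromosome 10 (ZNF248, ZNF25, ZNF33A and ZNF37A) and chromosome 16 (ZNF267). Of 218 ZNF genes elsewhere on these autosomes, 14 (6.42%) were called in all 4. The ZNF genes of chromosome 19 are not in this comparison. Olfactory receptor genes, odour receptors of the nose, were called in all 4 libraries for 53 of 101 window genes and for 52 of 293 elsewhere (17.7%).

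Families typical of pericentromeric duplications were called in part. Of 9 POTE genes, ankyrin repeat genes expressed in reproductive tissues, POTEB, POTEB2 and POTEB3 on chromosome 15 were called everywhere, while POTEA, POTEC, POTED, POTEG, POTEH and POTEM were called nowhere. Of the 4 POTE genes outside the windows, 0 were called in all 4 libraries. TPTE on chromosome 21 and TPTE2 on chromosome 13 were both called everywhere. Of 6 golgin genes on chromosome 15, GOLGA6L6, GOLGA6L26, GOLGA8S and GOLGA6L2 were called everywhere, and GOLGA6L22 and GOLGA6L1 with ab8898 alone, in both conditions; none of 23 elsewhere was called in all 4 libraries. Of 6 ankyrin repeat genes of the ANKRD18, ANKRD20, ANKRD26, ANKRD30 and ANKRD36 groups, only ANKRD30A was called, and neither NBPF8 nor NBPF26 on chromosome 1 was. No protein-coding FRG1 or FRG2 gene lay in the windows, but 10 of their 15 other copies were called everywhere, on chromosomes 16, 20 and 22, against 2 of 9 copies of any kind elsewhere. Chromosome 20 held called copies (FRG2EP, FRG1EP and FRG1BP) and uncalled ones (FRG1CP and FRG1DP).

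Immunoglobulin segments also fell in these regions. Of 57 immunoglobulin orphons, segments copied away from their loci, 33 were called everywhere and 23 nowhere, and of 11 outside the windows 0 were called everywhere. The kappa variable segments of chromosome 2, added after their calls were seen, were called in all libraries for 50 of 68 and with ab8898 for all 68, against 0 of 8 outside the window. At the edge of the chromosome 15 window, MKRN3, MAGEL2 and NDN, imprinted genes expressed from the paternal copy and likewise named after their calls were seen, were called everywhere. Their domain was 5.0 Mb long with ab176916 and 6.6 Mb with ab8898, and 1 and 1.2 Mb of it lay in the window.

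Between conditions the mean called length was the same. Control libraries had 34.0 ± 0.57 Mb (SD, n = 2) and RAB5A libraries 34.0 ± 1.13 Mb (SD, n = 2), so their means differed by 0 Mb (exact two-sided permutation test, p = 1; the smallest p of this design is 0.33). The mean of 0 came from opposite values, as RAB5A libraries had 1.2 Mb less with ab176916 and 1.2 Mb more with ab8898. The acrocentric windows had 10.6 ± 0.28 Mb in both conditions, with a difference of 0 Mb for each antibody. The other windows had 23.4 ± 0.85 Mb in both, and again differences of -1.2 and 1.2 Mb. With domains scoring under the lower quartile of their list removed, the difference over all windows was -2.9 Mb (exact permutation test, p = 0.33).

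The opposite values came from chromosome 7. The bins chr7:58400001-59400000, 5 of them alpha satellite, were called in all libraries but control ab8898, and chr7:59800001-61400000, with 6 alpha-satellite bins, in all but RAB5A ab176916. Without chromosome 7 the difference between conditions was 0.1 Mb. Elsewhere the bin chr17:21200001-21400000 was missing in control ab176916 alone.

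Bins that followed condition or antibody were rare. A single bin, chr7:59400001-59600000, an alpha-satellite bin without a protein-coding gene, was called in both RAB5A and no control library (0.0941% of members, against 0.128% of all bins). No bin was called in both control and no RAB5A library, against 0.0781% of all bins. The antibody set apart 3 bins each way. With ab176916 alone these were chr7:55600001-55800000, reached by SEPTIN14, and the pair at chr8:47200001-47600000, which holds the start of SPIDR, a scaffold of recombination repair (0.282%, against 0.0994% of all bins). With ab8898 alone they were chr2:89000001-89200000 with no protein-coding gene, chr15:22400001-22600000 with GOLGA6L22, and chr15:23000001-23200000 with GOLGA6L1 and TUBGCP5, a component of the gamma-tubulin ring (0.282%, against 0.135%).

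Overlap between libraries was measured by the Jaccard index, the bins called in both divided by the bins called in either. Libraries that shared an antibody gave 0.943 (ab176916) and 0.966 (ab8898), and those that shared a condition gave 0.932 (control) and 0.921 (RAB5A). The same-antibody pairs were higher by 0.028 on average, with 2 pairs of each kind from the same 4 libraries and no test. Pairs that shared neither gave 0.955 (control ab176916 with RAB5A ab8898), above the ab176916 pair, and 0.887. Outside the windows the order was not the same, with 0.893 and 0.881 by antibody and 0.878 (control) and 0.898 (RAB5A) by condition. In the acrocentric windows both same-antibody pairs stood at 1 and both same-condition pairs at 0.963. Without chromosome 7 the values were 0.993 and 1 by antibody, and 0.957 and 0.964 by condition.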

How the data were processed

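H3K9me3 ChIP-seq domains were analysed for 4 libraries of MCF10.DCIS.com cells, control and RAB5A, each with 2 antibodies; the 2 inputs were not analysed here. The authors trimmed reads with Trimmomatic 0.39, aligned them to hg38 with BWA 0.7.17-r1188, marked duplicates with Picard 2.22, removed poorly aligned reads with SAMtools 1.9 and called domains per library with EDD, at 200-kb bins and with the ENCODE exclusion list masked. Such filters act most on satellite repeats. The deposited lists give the start, end and score of each domain, and the score was used only for ranking and filtering within a list. They hold no read counts, so depth per library is unknown and no counting error can be given.

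Each domain boundary fell on the 200-kb grid, so a bin was called or not as a whole. Positions are 1-based hg38, and gene starts are from GENCODE on the same build. Sequence features came from the hg38 sequence, which carries no repeat masking, so the planned masked share was not computed. Bins with over 50% N were classed as unassembled, then alpha satellite (over 45% identity at a distance of 1 unit), then tandem GGAAT (over 50 runs). The 45% threshold was set from the observed values, with 13458 autosomal bins below 30% and 104 between 30% and 45%. Some array bins, as on chromosome 3, fell just under it and were not classed as alpha satellite. Unit sequences were aligned end to end with gaps allowed.

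Shares were compared by exact two-sided sign-flip tests over 4 libraries and called lengths by exact permutation of 2 against 2 libraries, with Python 3.11.15, NumPy 2.4.6 and pandas 2.3.3. Bins are neighbours and are not replicates, so features and genes were described without tests. The runs named are the 10 longest shared by every library and those that followed condition or antibody, with up to 3 protein-coding genes each in order of position, plus the members of the named families. The members and lists were chosen with earlier results of these data known. The binning was tested on 50 simulated lists. Alternatives covered window width, N content, side, score, length and merging of domains, chromosomes, libraries and the replicate block.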

Additional observations from a re-analysis of the deposited data

Results flagged for a closer look

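The difference in called pericentromeric length between RAB5A and control cells had opposite signs with the 2 antibodies, being -1.2 Mb for ab176916 and 1.2 Mb for ab8898. The windows outside the acrocentric chromosomes gave the same pair of values, -1.2 Mb and 1.2 Mb, and the acrocentric windows gave 0 Mb with both. Each antibody has 1 library per condition, so this difference between antibodies was not tested. Chromosome 7 held 15 of the 21 bins called in only some of the libraries, and without it the mean difference between conditions was 0.1 Mb.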

How the results depend on the processing

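The excess of the windows over other autosomal bins stayed positive under every alternative run, from 6.49 to 13.6 points, and so did the acrocentric difference, from 1.13 to 13.3 points; no test in this design could pass 0.05. Of 67 alternative values over all results, 58 stayed within the spread or kept their direction. Some of these could not change, so the count does not measure stability. No list had a domain under 1 Mb for the length filter to remove, and the replicate block gives the same difference by construction. Others kept their direction but lay outside the spread, such as the acrocentric difference of 1.13 points. Dropping domains that scored under the lower quartile of their list gave differences between conditions of -2.9 Mb over all windows, 0.7 Mb in the acrocentric and -3.6 Mb in the other windows, and turned the difference of the Jaccard indices to -0.0058; the cause was not tested. Windows of 10 Mb gave -0.5 Mb in the acrocentric windows. Leaving out a replicate, that is an antibody, gave -1.2 to 1.2 Mb over all windows and -1.2 to 1.2 Mb in the non-acrocentric ones. With the antibody as a replicate block the difference was 0 Mb over all, acrocentric and other windows (exact permutation, p = 1; 2 pairs cannot go below 0.5). Deviations of libraries sharing a number correlated at 0.485 over 177 bins and 0.913 over 138 bins without chromosome 7. The number marks an antibody, not a shared culture. Of the 177 bins, 156 were called in all 4 libraries and do not vary between them. The correlations thus rest on the 21 bins called in 1 to 3 libraries. Chromosome 7 held 15 of these, so the value without it rests on very few neighbouring bins, which are not replicates. Leaving out chromosome 7, bins over 50% N or alpha satellite was chosen after seeing the data. Depth is unknown, so a bin missing from 1 list may lie just below that library's threshold.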
